A study of Oryza sativa with 6 samples.

Results

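miR2118 and miR2275 are the small RNAs that start the production of phased secondary siRNAs (phasiRNAs) in grasses, and 6 of the 479 miRNA names measured in rice leaves belonged to them. The members were all names of the families miR2118 and miR2275 (also written MIR2118 and MIR2275), with any species prefix and from either arm, after rows that exactly repeated another row were dropped. Of these 6 names, 5 were of mature miRNAs and 1 was of a sequence that its name assigns to the 5′ arm of a miR2118 hairpin (p5). The family miR2118 gave 5 names and miR2275 gave 1.

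Small RNA was sequenced from seedling leaves of the glyphosate-tolerant rice CA21, which carries no transgene and came from radiation and chemical mutagenesis followed by crossing. Plants at the third-leaf stage were sprayed with glyphosate, a herbicide that blocks the shikimate pathway, at 2 mg per ml (GLY), or received no spray (CK), with 3 libraries in each group. Both groups were of this 1 germplasm, so no sensitive rice was among the libraries, and whether libraries of 1 group were made from different plants is not stated in the labels. The p-values therefore measure the spread between these libraries, which may be technical. Each value is a normalized read count per miRNA and library, and values listed for a group follow the library numbers 1 to 3.

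In the grass pathway, a long non-coding transcript is cut at a site complementary to a 22-nt miRNA, the cut RNA is copied into a double strand by RDR6 with SGS3, and a Dicer protein then cuts it at regular steps. miR2118 starts the 21-nt class, which DCL4 makes in young anthers, and miR2275 starts the 24-nt class, which DCL5 makes around meiosis. Both are known in rice and maize mainly from male reproductive organs, and a leaf is not the tissue in which they are known to be abundant. In eudicots, miR2118 and the related miR482 target disease resistance genes of the NBS-LRR class.

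The sequences are shown because they separate the mature triggers from the p5 sequence. Mature names are printed 5′ to 3′ with the seed (bases 2 to 8) in capitals:
osa-miR2118e: tTCCCAATgcctcccatgccta
osa-miR2118o_1ss1CT: tTCCTGATgcctcccaagccta
osa-miR2118d_1ss17TA: tTCCTGATgcctcccaagccta
gma-miR2118a-3p_R+1: tTGCCGATtccacccattccta
zma-miR2275b-5p_1ss12CG: aGGATTAGagggaactgaacc
In the p5 name the capitals mark the 2 positions at which the sequence departs from the hairpin it is named after:
osa-MIR2118e-p5_2ss13TA19CT: gaaaagagagtcAaagagT

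All 4 mature miR2118 names were 22 nt long and began with T, the length and first base known for triggers of phasiRNAs. Of these, osa-miR2118o_1ss1CT and osa-miR2118d_1ss17TA, carried 1 and the same sequence, so the 5 mature names held 4 distinct sequences. In these names, ss gives a substitution against the miRNA that lends the name, counted from the 5′ end: the shared sequence differs from osa-miR2118o by C1T and from osa-miR2118d by T17A. It differed from osa-miR2118e at 3 of its positions (C5T, A6G and T17A, osa-miR2118e given first), 2 of them inside the seed, so the rice names fell into 2 seed groups. The name with the soybean prefix gma differed from osa-miR2118e at 5 positions and from the shared sequence at 6, and had a seed of its own. R+1 in its name marks 1 base added at the 3′ end.

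The only miR2275 name, with the maize prefix zma, was 21 nt long, began with A and lay on the 5′ arm, with the substitution C12G. The known trigger of miR2275 is the 22-nt sequence of the 3′ arm, and 0 names of that arm were listed. The p5 sequence had 19 nt and the substitutions T13A and C19T. Its longest stretch in common with any mature member was 4 bases, and in the best ungapped register 10 of its bases could pair with osa-miR2118e (G with T counted as a pair), with no uninterrupted run of pairs over 3. No genome, hairpin or ribosomal RNA sequence was used here, so the place of these sequences in the genome is not given. Whether the p5 sequence comes from the hairpin it is named after or from another rice RNA, ribosomal RNA included, was not tested, and its values below are those of the listed sequence only.

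Mature miR2118 of rice was listed in the unsprayed leaves only. The level of osa-miR2118e was 8.37 in CK 1, 4.82 in CK 2 and 5.95 in CK 3, and the name was listed at 0 in all GLY libraries. The level of osa-miR2118o_1ss1CT was 10.1, 7.45 and 7.84 across the CK libraries, and it too was listed at 0 in the 3 GLY libraries. Every CK library was thus above every GLY library for both sequences, at low levels: 72.97% to 92.9% of the names listed in a CK library were higher than these members. The values of osa-miR2118d_1ss17TA were those of osa-miR2118o_1ss1CT, since both names share their reads, and add no second observation.

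**Figure D1:**
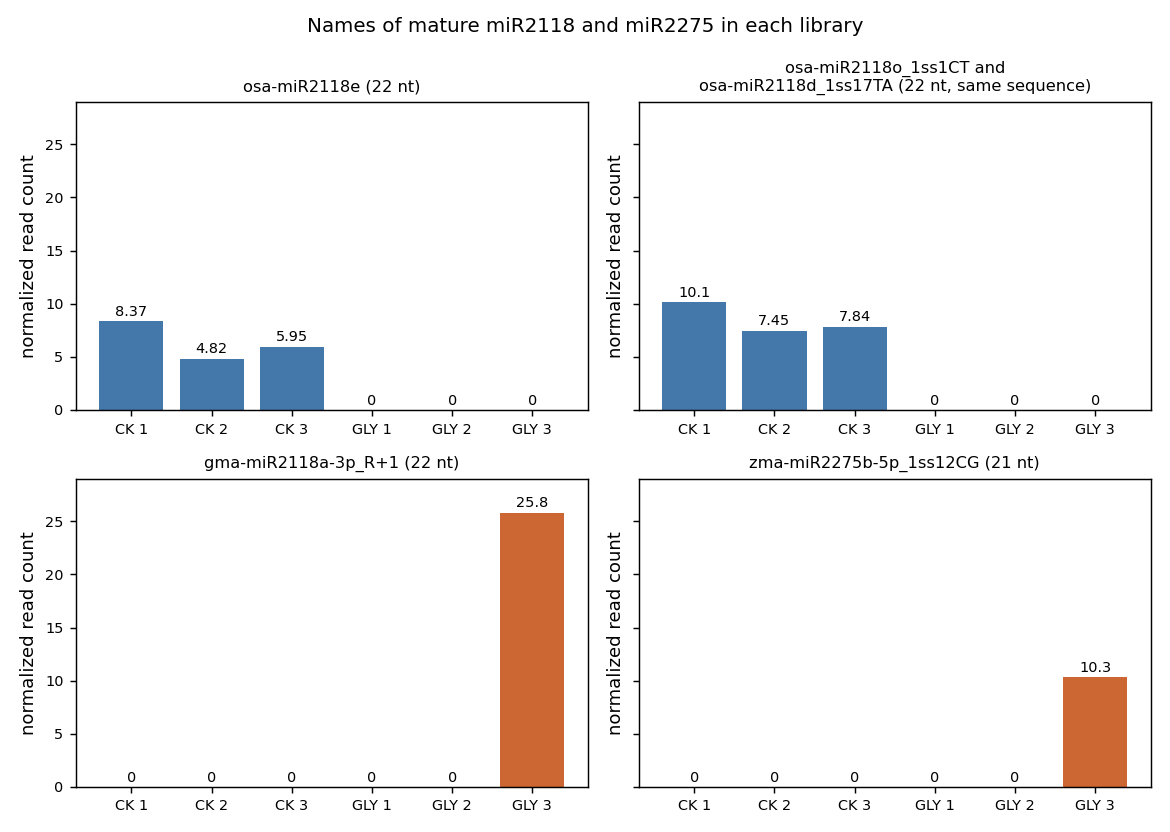
Normalized read count (vertical axis) of the mature names in each of the 3 CK and 3 GLY libraries, 1 bar per library. The rice sequences stood at 4.82 to 10.1 in CK and at 0 in GLY, and the names with soybean and maize prefixes were listed in GLY 3 only, at 25.8 and 10.3.

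The low values stood for few reads. Low values in a library were mostly whole multiples of 1 step, the worth of 1 read after scaling, which was 0.881, 0.877 and 0.541 for the CK libraries against 0.879, 1.49 and 1.72 for the GLY libraries. On this scale osa-miR2118e had 9.5, 5.5 and 11 reads per row in the CK libraries and was listed in 2 identical rows. The reads of a sequence with several rows had been divided among the rows, and with both rows added osa-miR2118e had 19, 11 and 22 reads. The sequence shared by osa-miR2118o_1ss1CT and osa-miR2118d_1ss17TA had 23, 17 and 29 reads, of which each name showed 11.5, 8.5 and 14.5. The rice miR2118 sequences together reached 37.0, 24.5 and 27.6 normalized reads across the CK libraries when all rows were added, and 18.5, 12.3 and 13.8 with 1 row per sequence.

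In GLY 2 and GLY 3, 1 read was worth more normalized units than in any CK library, so fewer reads stood behind the same level. At the mean CK level, osa-miR2118e would have given 14.5 reads in GLY 1, 8.54 in GLY 2 and 7.42 in GLY 3. The shared sequence of osa-miR2118o_1ss1CT and osa-miR2118d_1ss17TA would have given 19.3, 11.3 and 9.85. The table did list values this small in the same libraries: 69, 69 and 56 distinct sequences had 10 or fewer reads across the GLY libraries. An entry at 0 may still hide a few reads, since the fewest reads of any listed sequence were 2.33 to 5 per library and no source used here gives a minimum for listing a row.

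**Figure D2:**
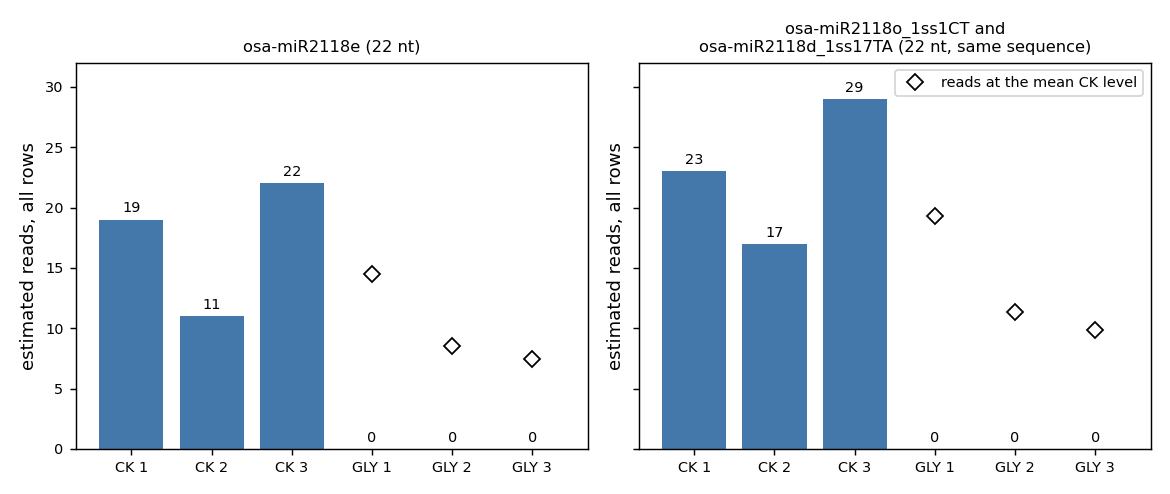
Estimated reads per library (vertical axis, all rows of a sequence added) of the 2 rice miR2118 sequences; bars are the listed values and open diamonds are the reads that the mean CK level would have given in each GLY library. The bars are 11 to 29 reads in CK and 0 in GLY, where the diamonds lie between 7.42 and 19.3.

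The groups did not overlap for either rice sequence, as for 35.9% of the 251 names of the comparison across all names. The difference of each had an exact two-sided permutation p of 0.1, the smallest that 3 against 3 libraries can give. None of the 5 mature names reached the level of 10 or more in at least 3 libraries that the comparison across all names required. When that filter was lowered to a value above 0 in at least 3 libraries, 353 names were tested on log2(value + 1), and the limma adjusted p was 0.0252 for osa-miR2118e and 0.0176 for osa-miR2118o_1ss1CT, against 5.38% of names called lower in GLY. These names passed the lowered filter only through the CK libraries, so they could pass it only by differing, and the p-values carry that choice. Both calls were lost when no filter was applied (limma adjusted p of 0.105 and 0.0712) and when any library but GLY 2 was left out. No fold change is given against a group listed at 0.

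Of all names, 2.51% (12 of 479) were above 0 in every CK library and at 0 in every GLY library. Among the 69 names with a mean CK value under 15 that were above 0 in all CK libraries, 9 were at 0 in all GLY libraries, and 3 of these 9 were the rice miR2118 names. Counted by sequence with 1 row each, 7 of 59 had the pattern (11.9%), and 2 of the 7 were miR2118. With all rows added, the sequence shared by osa-miR2118o_1ss1CT and osa-miR2118d_1ss17TA had a mean CK value of 16.9, above the limit of 15. Among names of 22 nt within the same limits, the pattern was seen in 5 of 11, the members included. These 5 were ath-miR169h_R+1, ath-miR396b-5p_R+1 and the 3 rice miR2118 names, of which 2 share 1 sequence. The 2 names with the prefix ath were named after their values were seen. Leaving out a library removes a condition, so the count of 9 names could rise but hardly fall. It was 16 without CK 1 or without GLY 1, 14 without CK 2 and 10 without CK 3. Without GLY 2 it was 25, and without GLY 3 it was 9. These counts are descriptions with no test.

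The remaining mature members were listed in GLY 3 alone, the library with the fewest estimated reads when repeat rows were dropped. The level of gma-miR2118a-3p_R+1 was 25.8 in GLY 3, which stands for 15 reads, and 0 in CK 1, CK 2, CK 3, GLY 1 and GLY 2. The level of zma-miR2275b-5p_1ss12CG was 10.3 in GLY 3, or 6 reads, and 0 in the other 5 libraries. At the GLY 3 level the soybean-named sequence would have given 17.3 to 47.7 reads in the other libraries, and the miR2275 sequence 6.91 to 19.1. Only 4 of the 479 names (0.835%) were listed in GLY 3 alone, and 2 of the 4 were these members. With 1 library each, the groups overlapped at 0 (exact two-sided permutation p of 1 for both).

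A sum over the distinct mature sequences, 1 row each, joined these opposite patterns. It was 18.5, 12.3 and 13.8 across the CK libraries, against 0, 0 and 36.1 across the GLY libraries. With 1 row each, GLY 3 lay above and the other GLY libraries below all CK libraries. Each rice sequence had 2 rows and the soybean- and maize-named sequences had 1, so this sum leaves out part of the rice reads. With all rows added the CK sums were 37.0, 24.5 and 27.6, and GLY 3, still at 36.1, lay below CK 1. With 1 row each the group means were 14.9 ± 3.25 (SD, n = 3) and 12.04 ± 20.9, with an exact two-sided permutation p of 1. In that sum GLY 3 decided the sign. Without GLY 1 or without GLY 2 the difference GLY minus CK turned from -2.81 to 3.21, and without GLY 3 it was -14.9. With all rows added the difference was -17.7 (exact two-sided permutation p of 0.3), and leaving out single libraries was not tried for that sum.

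The p5 sequence was far more abundant than the mature members. The level of osa-MIR2118e-p5_2ss13TA19CT was 98.7, 120 and 77.8 across the CK libraries. After the spray it was 343 in GLY 1, 46.3 in GLY 2 and 549 in GLY 3. It was thus above all CK libraries in GLY 1 and GLY 3, by 3.47 and 5.55 times the CK mean, and below all CK libraries in GLY 2, at 0.468 times that mean. It stood for 112, 137 and 144 reads in the CK libraries and for 390, 31 and 319 in the GLY libraries. It made up 77.5% to 85.9% of the summed values of all members in CK and 93.8% to 100% in GLY, so a total over the 6 names would follow the p5 sequence and not the triggers. Its share of all miRNA values was 0.0473% to 0.0811% in CK, against 0.221%, 0.0261% and 0.326% across the GLY libraries.

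**Figure D3:**
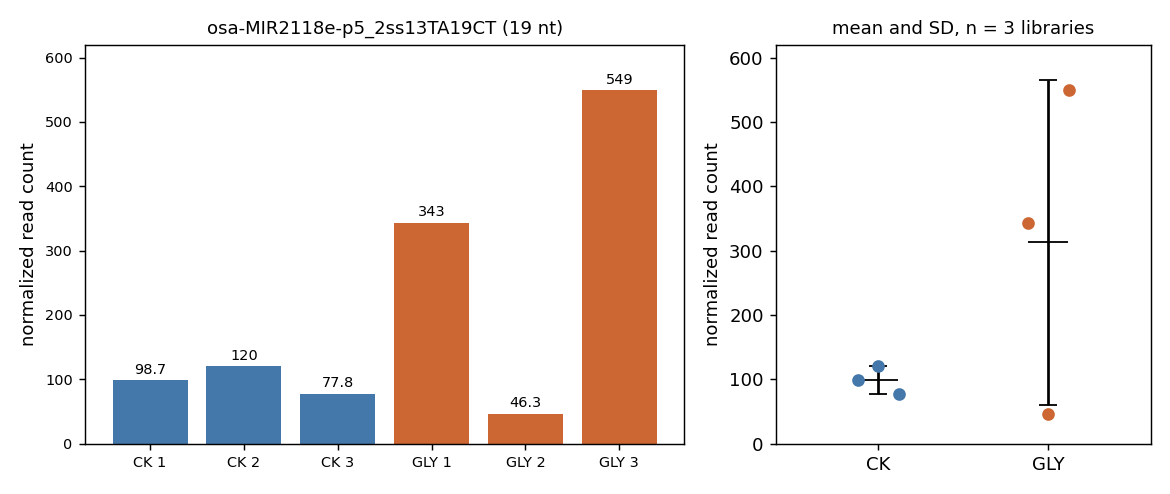
Normalized read count (vertical axis) of osa-MIR2118e-p5_2ss13TA19CT by library (left) and by group (right, points are libraries, the horizontal mark is the mean and the bar is the SD of 3 libraries). GLY 1 and GLY 3 stand at 343 and 549, above the CK range of 77.8 to 120, and GLY 2 stands below it at 46.3.

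This was the only member tested in the comparison across all names, in which 28 of 251 tested names were called (11.2%, 7.57% higher and 3.59% lower in GLY). That number rested on single libraries, with 1 call when GLY 1 or GLY 3 was left out and 113 when GLY 2 was, and with 5, 2 and 9 when CK 1, CK 2 or CK 3 was left out. The p5 sequence was not called. The group means were 98.9 ± 21.1 (SD, n = 3) in CK and 313 ± 253 in GLY, and the limma log2 fold change was 1.08 ± 0.93 (SE) with an adjusted p of 0.548, beside a median of -0.46 over all tested names. The exact two-sided permutation p was 0.4. Without GLY 2 it was called, with a log2 fold change of 2.14 and a limma adjusted p of 0.00259, in a fit that called 14.1% of 234 names higher and 34.2% lower in GLY. Without GLY 3 the log2 fold change was 0.38 (limma adjusted p of 0.852), and without GLY 1 it was 0.71 (0.791).

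GLY 2 stood apart in the whole table: across the 251 tested names its log2 values correlated at 0.640 and 0.557 with GLY 1 and GLY 3, which correlated at 0.928 with each other, while the CK libraries correlated at 0.939 to 0.972. Estimated miRNA reads ranged from 97902 in GLY 3 to 304753 in CK 3, without the reads assigned to the dropped repeat rows. Per library, 258 to 370 names were above 0. Of the 250 other tested names, 8 shared the pattern of the p5 sequence, with GLY 1 and GLY 3 above and GLY 2 below all CK libraries, and 57 showed its mirror image. Of the 22 other tested names of 18 to 20 nt, 4 had the p5 pattern.

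The 5 tested names whose log2(value + 1) followed the p5 sequence most closely over the 6 libraries had a Pearson r of 0.991 to 0.917, against a median of -0.18 over the 250 names compared. The closest was osa-miR5077_L-1_1ss5GA, an 18-nt sequence, whose CK values were 92.5, 129 and 48.6 and whose GLY values were 459.9, 17.9 and 926. Another 18-nt sequence, osa-miR5072_L-4, had CK values of 69.6, 64.9 and 23.2, GLY values of 403, 0 and 819, and an r of 0.925. Like the p5 sequence, these 2 were highest in GLY 3 and lowest in GLY 2. The other 3 were osa-miR167e-3p, osa-miR156a and osa-miR3982-3p_L+1R-1, with r of 0.933, 0.928 and 0.917. Of these, the 21-nt osa-miR3982-3p_L+1R-1 was also highest in GLY 3 (89.5) and lowest in GLY 2 (26.9). These correlations share the libraries and their depth and are given as a description.

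**Figure D4:**
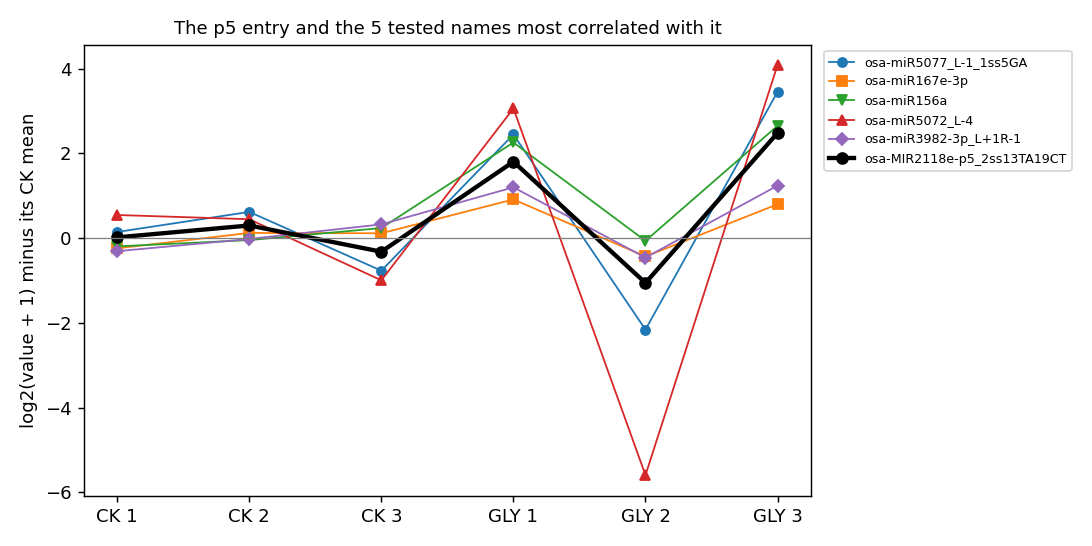
Difference of log2(value + 1) from its own mean over the CK libraries (vertical axis) in each library, for the p5 sequence (thick line) and the 5 tested names most correlated with it. Each line is 1 name; all lines stand above 0 in GLY 1 and GLY 3 and below 0 in GLY 2, where osa-miR5072_L-4 was listed at 0.

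In the same leaves, other families of the phased and small RNA pathway had some abundant names and some low ones. miR390 guides the cut of TAS3 transcripts, which also yields phased siRNAs, miR162 targets DCL1 and miR168 targets AGO1. Of their 10 names 6 were tested, 0 were called higher and 1 was called lower in GLY, beside 7.57% and 3.59% of all tested names. Their median log2 fold change was -0.57, against -0.46 over all tested names. The untested names were low in CK, with means of 8.75 for osa-MIR162a-p5 and osa-MIR162b-p5, 1.76 for aly-miR168a-5p and 0.877 for aly-miR390a-5p_R+1. They are named here to show the low end of the list. The TAS3 trigger osa-miR390-5p had CK values of 483, 697 and 717 and GLY values of 725, 285 and 528, which overlapped. For osa-miR168a-5p the CK values were 6810, 6603 and 8029 and the GLY values 4443, 3399 and 6125, without overlap (as in 35.9% of tested names), and the name was not called (limma adjusted p of 0.193), while osa-miR168a-3p_L-3, from the other arm of that hairpin, had means of 21886 ± 3074 (SD, n = 3) in CK and 14985 ± 3760 in GLY (limma adjusted p of 0.217). The levels of osa-miR162a and osa-miR162b were 1124 ± 215 and 362 ± 68.0 in CK and 828 ± 211 and 249 ± 80.9 in GLY (limma adjusted p of 0.432 and 0.372). The called name was osa-miR390-3p_L+3, of the arm opposite to the TAS3 trigger, with CK values of 22.03, 20.2 and 13.5 and every GLY library at 0 (limma adjusted p of 0.0145). It passed the filter through the CK libraries alone, so it could be tested only by differing, and the p-value carries that choice.

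The mature miR2118 sequences of rice lay far below osa-miR390-5p, osa-miR162a, osa-miR162b, osa-miR168a-5p and osa-miR168a-3p_L-3. In CK osa-miR2118e was at 6.38 ± 1.81 (SD, n = 3) and osa-miR2118o_1ss1CT at 8.47 ± 1.45. These are values of 1 row per name, and with all rows added the CK means were 12.8 and 16.9. A low level did not set miR2118 apart from the low names of these families. The CK means were 8.75 for osa-MIR162a-p5 and osa-MIR162b-p5, 1.76 for aly-miR168a-5p and 0.877 for aly-miR390a-5p_R+1. The median CK mean over all 70 names of 22 nt was 8.47. That is the value of osa-miR2118o_1ss1CT and osa-miR2118d_1ss17TA themselves, which stood at the middle of the 22-nt names. They are counted in that median, so it is no outside measure of their level. Names of miR482, miR472, miR1507, miR2109, miR1510 and miR5300, families of 22-nt triggers that target NBS-LRR genes in eudicots, numbered 0 in the table. No leaf marker could be checked, because the table holds miRNAs only.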

How the data were processed

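Per the file headers, the authors deposited 1 normalized read count (a signal value) per miRNA row and library. Libraries were made with a TruSeq kit and read from 1 end; adaptors, reads under 18 nt and matches to rRNA, tRNA or repeats were screened with ACGT101-miR, and what remained was mapped to miRBase 20 precursors. No source used here gives that tool's version or the scaling rule.

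Of 582 rows, 103 exact repeats were dropped, which left 479 names. The worth of 1 read was the largest step at which at least 0.75 of the values under 60 were whole within 0.01; 78.5% to 83.5% were, so the values were not taken as counts. It reflects the scaling of each library and need not follow its total reads, so no counting intervals are given.

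Names with 10 or more in at least 3 libraries were fitted on log2(value + 1), GLY against CK, with limma 3.58.1 in R 4.3.3 (trend and robust options, no block), called at a Benjamini-Hochberg adjusted p under 0.05. The study's count model needs counts. The fit was tested on simulated data. The text names every member, the 5 tested names most correlated with the p5 sequence, and pathway names with a mean of 100 or more, with exceptions stated. Members and lists were chosen with earlier results of these data known. Alternatives covered pseudocount, filter, scaling, shared sequences, a replicate block and leaving out each library.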

Additional observations from a re-analysis of the deposited data

How the results depend on the processing

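The p5 sequence kept its direction and stayed uncalled in 15 of 16 alternatives, the exception being the fit without GLY 2. Leaving out 1 library gave log2 fold changes of 0.38 to 2.14, with limma adjusted p of 0.00259 to 0.852. The lowered-filter calls of the rice miR2118 sequences were lost in 8 of 15 alternatives. These sequences passed the lowered filter through the CK libraries alone, so the p-values carry that choice whether a call was kept or lost. For osa-miR2118e the limma adjusted p was 0.105 with no filter, 0.208 after quantile normalization and 0.0135 to 0.146 without 1 library. For osa-miR2118o_1ss1CT it was 0.0712, 0.143 and 0.00815 to 0.132. In lowered-filter fits without 1 library, the filter asked for 2 libraries, so more names were tested. The fits across all names still asked for 3 libraries and tested fewer names (234 to 240, against 251). The mature sum with 1 row each (GLY minus CK) was -14.9 to 3.21 without 1 library, turning to 3.21 without GLY 1 or GLY 2. It was -17.7 with all rows of a sequence summed, an alternative chosen after seeing the data, for which no library was left out. The calls over all names were 1 to 113 without 1 library, against 28. The 9 low names at 0 in all GLY libraries became 9 to 25. Leaving out a library removes a condition, so that count could hardly fall.

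With the replicate number as a block, the calls over all names were 6, and the limma adjusted p was 0.536 for the p5 sequence, 0.103 for osa-miR2118e and 0.0960 for osa-miR2118o_1ss1CT. The labels do not say that a number pairs libraries. The main fit had no block because the study's methods describe none. Beside that choice, the deviations of same-numbered libraries correlated at -0.39, 0.094 and 0.47, and CK 1 correlated most with GLY 2 (0.51). Depth limits the mature members: 6 to 29 estimated reads, all rows added, stood behind each mature sequence above 0.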
